A study of Mus musculus with 82 samples.

Results

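Skin of mice that had received 20 Gy of whole-body X-rays was compared with skin of sham-treated mice at d7. The members were chosen by their labels alone. They were the 3 arrays labelled 20 Gy and day 7 (mice M022, M023 and M024) and all 4 arrays labelled 0 Gy and day 7 (mice M001, M002, M003 and M005), together 7 of the 82 arrays of the series. All mice were male C57BL/6j, bought at a single age and acclimated before use, and no allele or agent other than the X-rays differed between the groups. The sham mice went through the same handling without exposure. Dorsal skin was shaved and biopsied repeatedly from the same mouse, so that by the protocol each d7 sample came from an animal already biopsied and sutured at h2 and d4, in both groups alike. Mice of 20 Gy were euthanized at a humane endpoint by d7, so that d7 was their last biopsy. Each array here belongs to a different mouse. Biopsy RNA carried Cy5 and a pooled mouse reference RNA carried Cy3, and a level in this text is the log2 ratio of Cy5 to Cy3 of a gene's probe after normalization within the array. A level is thus relative to the reference RNA and to the other spots of the array, dim spots are drawn toward 0 by the offset used, and levels of different probes were not set against each other.

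The dermis owes its strength to fibrils of type I and type III collagen, which fibroblasts secrete and cross-link, and above it keratinocytes renew the epidermis from a basal layer and form hair follicles and sebaceous glands. Ionizing radiation damages dividing cells, activates p53 and its targets, and at lethal whole-body doses injures marrow and gut, with weight loss and a systemic stress response. Glucocorticoids released under such stress induce a known set of genes in many tissues, and they are known to depress collagen synthesis in skin.

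The labelled tissue was checked by its keratins, and Krt5 of the basal layer lay between 3.76 and 5.26 in all 7 arrays. Markers of skeletal muscle were also well above the reference RNA, with list medians per array from 3.92 to 4.65 after 20 Gy and from 3.64 to 5.70 in sham, in both groups alike. The arrays were read on 2 scanner models. All 3 arrays of 20 Gy and the sham arrays of M001 and M005 were read on scanner 1, and those of M002 and M003 on scanner 2. The version of the image software and the day of scanning also differed between the scanners, per the file headers. Median Cy5 intensities lay between 22 and 26.5 on scanner 1 and at 76.5 and 98 on scanner 2, and 43.2% to 60.4% of the probes of an array were well above background in Cy5. Across all probes the 3 arrays of 20 Gy correlated at 0.86 to 0.94 with each other, at 0.73 to 0.84 with the sham arrays of scanner 1, and at 0.52 to 0.65 with those of scanner 2. Among the sham arrays 99 probes were higher and 138 lower on scanner 2 than on scanner 1 at the thresholds used below. In the deposited normalized values, which are described further on, this comparison gave 0 and 0. In the scanner values the sham arrays thus stood apart by scanner. The genes that passed are therefore also given against the 2 sham arrays of scanner 1 alone, with the spread still from all arrays. Of the 62 named genes that passed, 35 lost their call this way, of which 21 passed again when the model held the arrays of scanner 1 only, among them Lum, Sparc, Mfap4, Fa2h, Cidea, Scd1, Fkbp5 and Errfi1. Whether scanner, day of scanning, software, slide or the mice made the sham arrays differ cannot be told apart.

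After 20 Gy, mRNAs of 7 of 20 fibrillar collagens and fibril partners fell, as did Fasn and Msmo1, enzymes of fatty acid and sterol synthesis. Mt1, Mt2, Gadd45g, Sesn1 and 5 of 13 genes that answer to glucocorticoids rose. In a limma model of all arrays, 366 of 30294 probes (1.21%) rose and 189 (0.624%) fell with p-values adjusted by Benjamini-Hochberg below 0.05 and a change of 2-fold or more, the criteria for a significantly differentially transcribed gene (SDTG). At an unadjusted p under 0.05 and the same fold, the numbers were 475 and 378. Counted once per gene, by the probe of highest mean intensity, 199 of 15740 genes (1.26%) rose and 150 (0.953%) fell. Of all genes, 9.03% lay higher and 8.52% lower in every array of 20 Gy than in every sham array, and of the SDTGs 183 of 199 and 136 of 150 did so. The median change of all probes was 0.02, and 7805 of the 15740 genes were below 0. The counts of each gene list are to be read against the 1.26% of genes that rose and the 0.953% that fell. In the 138 SDTGs with several probes, all probes shared a sign in 116. Among the named genes that passed, 25 had several probes, of which every probe passed in 6, and 1 of them, Btg2, had a probe of the other sign. In bulk skin, fewer cells of a type and less RNA per cell cannot be told apart.

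The largest fall was that of type III collagen. Col3a1 (chromosome 1), which encodes its single chain, lay at -2.12, -1.45 and -1.38 in the arrays of M022, M023 and M024, against 4.13 (M001), 2.76 (M005), 3.81 (M002) and 4.35 (M003) in sham. Every 20 Gy array was thus far below every sham array, and the fall was 42.7-fold (-5.42 ± 0.64, log2 ± SE, adjusted p = 6.7e-09). A further probe of the gene changed by -3.34 and also passed both thresholds. Col1a1 (chromosome 11), the main chain of type I collagen, was at -1.6, -1.73 and -1.11 after 20 Gy and at 4.91, 3.09, 2.13 and 2.77 in sham, in the same order of mice. The groups did not overlap, the fall was 26.1-fold (-4.71 ± 0.64, adjusted p = 2.0e-07), and its 3 probes fell by between -5.14 and -4.11. Col1a2 (chromosome 6), its partner chain, was at -0.57, 0.20 and 0.83 after 20 Gy and at 6.41, 3.56, 2.24 and 4.23 in sham, again without overlap (-3.95 ± 0.78, adjusted p = 3.2e-04).

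Of the 20 measured fibrillar collagens and fibril partners, 7 fell and none rose, where 0.953% of all genes fell, and 16 of the 20 changes were below 0 with a median of -1.22. Beside the 3 chains above they were Lum, Sparc, Postn and Col5a3. Postn, which encodes periostin, a matrix protein of wounds, was at -0.18, -0.01 and -0.14 after 20 Gy, well above background in 1 of those 3 arrays, and at 0.68, 1.74, 2.68 and 4.51 in sham (-2.51 ± 0.75, adjusted p = 0.036). Lum encodes lumican, a proteoglycan that spaces collagen fibrils, and its level of 2.42, 2.14 and 1.70 after 20 Gy compared with 5.64, 4.69, 7.68 and 7.86 in sham (-4.38 ± 0.93, adjusted p = 0.00105). Sparc, a collagen-binding matrix protein, was at -0.10, -0.84 and -0.64 after 20 Gy and at 3.52, 2.22 and 2.46 in sham, the spot of M002 having been left out as an outlier by the scanner software (-3.26 ± 0.88, adjusted p = 0.0171). Col5a3 changed by -1.70 ± 0.51 (adjusted p = 0.0347), while its further probe was at -0.05 and did not pass. Col5a1 and Col5a2, chains of the collagen that nucleates the fibrils, changed by -1.34 (adjusted p = 0.172) and -1.09 (adjusted p = 0.294), below every sham array yet not past the test. Col5a1 passed in the model of scanner 1 arrays (-1.56, adjusted p = 1.1e-04) and with the scanner as a block (-1.89, adjusted p = 0.00437). With the slide as a random block it did not (-1.58, adjusted p = 0.0635), and Col5a2 passed in none of these. Against the sham arrays of scanner 1 alone, Col3a1 was at -5.10 (adjusted p = 9.6e-06), Col1a1 at -5.48 (1.4e-06) and Col1a2 at -4.83 (5.3e-04), while Lum, Sparc, Col5a3 and Postn lost their calls at -3.08, -3.40, -1.33 and -1.32 (adjusted p = 0.229, 0.0741, 0.643 and 1). Within the one slide that held both groups, with 1 array of 20 Gy and 2 of sham, Col3a1 was at -5.57 and Col1a1 at -5.60. These are values of a single 20 Gy array, with no spread of its own.

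**Figure D1:**
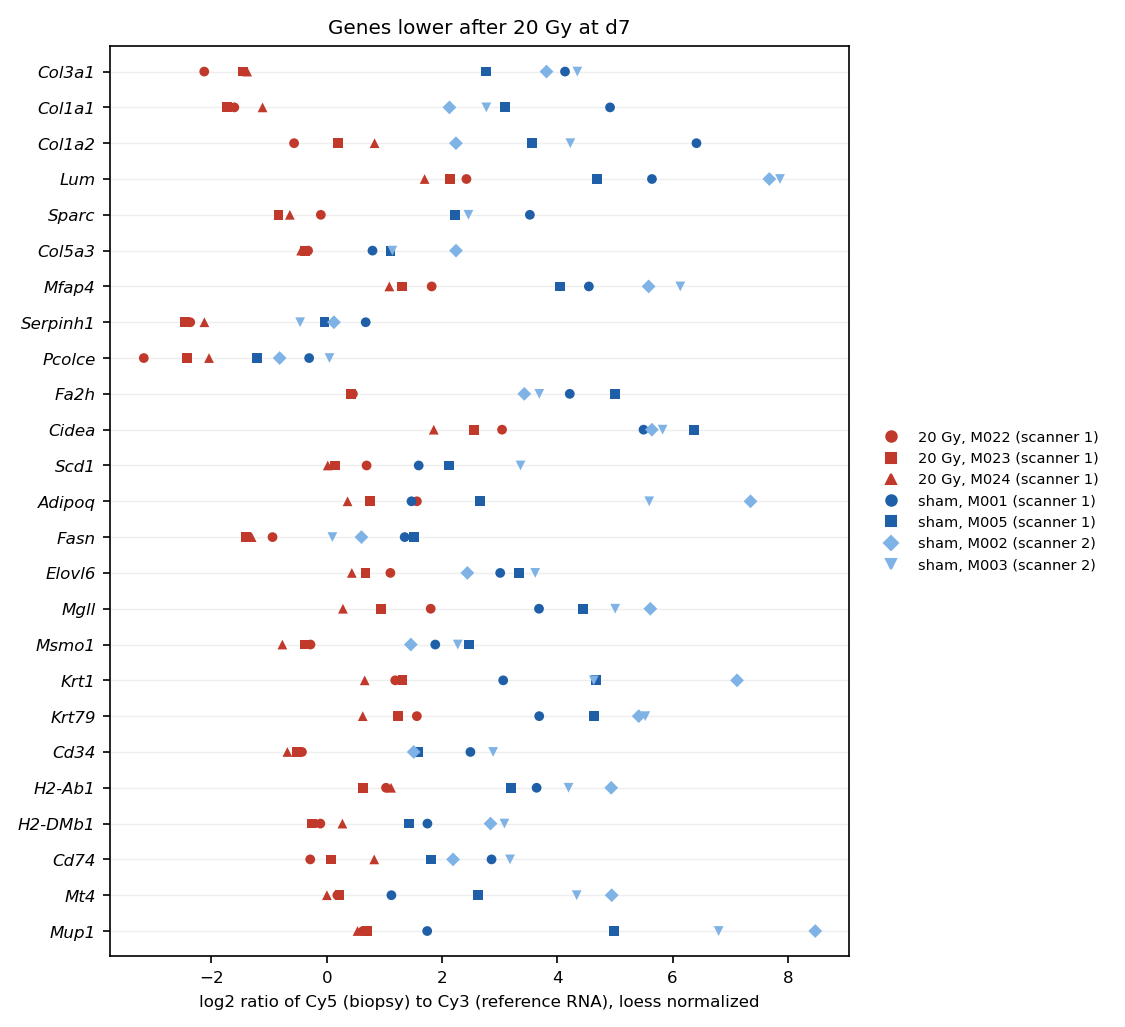
Level of genes that fell after 20 Gy in each of the 7 arrays at d7, as the log2 ratio of Cy5 (biopsy) to Cy3 (reference RNA) after loess; each point is 1 array of 1 mouse, red for 20 Gy, dark blue for sham on scanner 1 and light blue for sham on scanner 2. For Col3a1 the 20 Gy arrays lie between -2.12 and -1.38 and the sham arrays between 2.76 and 4.35, and for Adipoq the sham arrays of scanner 2 (7.35 and 5.59) lie farther from 20 Gy than those of scanner 1 (1.47 and 2.67).

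Among 16 genes of collagen processing and cross-linking, 2 fell and none rose (median -0.29, with 0.953% of all genes falling). Serpinh1, the chaperone of procollagen, was at -2.37, -2.46 and -2.12 after 20 Gy and at 0.68, -0.04, 0.13 and -0.46 in sham, a separation without overlap (-2.39 ± 0.60, adjusted p = 0.00751). Pcolce, which enhances the trimming of procollagen ends, was at -3.17, -2.42 and -2.04 after 20 Gy and at -0.30, -1.21, -0.82 and 0.05 in sham, also without overlap (-1.98 ± 0.51, adjusted p = 0.0108). With scanner 1 alone Serpinh1 stayed past the test (-2.63, adjusted p = 0.0414) and Pcolce did not (-1.79, adjusted p = 0.203). Of 19 matrix proteases and inhibitors 1 fell and 1 rose. Mmp3, or stromelysin, was at -0.49, -0.16 and -0.18 against 1.89, 1.12, 1.92 and 3.81 in sham (-2.46 ± 0.64, adjusted p = 0.0111), and Adamts1, an aggrecan-cleaving protease, was at 1.39, 1.69 and 0.72 against -0.54, -0.87, -1.11 and -1.07 (2.16 ± 0.30, adjusted p = 3.6e-07). With scanner 1 alone Adamts1 held (1.97, adjusted p = 3.0e-04) and Mmp3 did not (-1.78, adjusted p = 0.535). None of 16 basement membrane and hemidesmosome genes passed the test.

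Of 15 fibroblast markers outside the fibrils 4 fell and none rose, against 0.953% of all genes that fell, with a median of -1.09. Mfap4, a glycoprotein of elastic fibers, was at 1.82, 1.31 and 1.09 after 20 Gy and at 4.55, 4.04, 5.58 and 6.13 in sham (-3.67 ± 0.85, adjusted p = 0.00296). The others were Serpinf1 (-2.03 ± 0.53, adjusted p = 0.0126), Cd248 (-1.63 ± 0.45, adjusted p = 0.0202) and Thy1 (-1.33 ± 0.41, adjusted p = 0.0479), surface or secreted proteins of fibroblasts, all below every sham array. A further probe of each of these was at -0.56, -0.77 and -0.60 and did not pass. The list's median level per array was -0.18 to 0.05 after 20 Gy, 0.46 and 0.42 in sham on scanner 1 and 0.62 and 1.53 in sham on scanner 2. Against scanner 1 alone the changes of these genes were -2.89, -1.66, -1.06 and -1.67, none past the test (adjusted p = 0.215, 0.362, 0.819 and 0.0729). The part of fibroblast number in the fall of collagen mRNAs was not tested.

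The study's list of GP6 signaling, the route by which platelets respond to collagen, is largely a list of collagen chains and was chosen by the study on these samples, so that its direction is not independent evidence. Of its 17 genes 16 were tested, and Col1a1, Col1a2, Col3a1 and Col5a3 fell, with a list median of -1.32. The others gave no call in the main model. Col7a1, the anchoring fibril collagen, changed by -1.30 (adjusted p = 0.219), and Col15a1 of the basement membrane zone by -1.96 (adjusted p = 0.355). In the model of scanner 1 arrays both passed (-1.52 and -1.49, adjusted p = 6.4e-05 and 0.0473). With the scanner as a block only Col7a1 did (adjusted p = 0.0225 and 0.289), and with the slide as a random block neither (adjusted p = 0.276 and 0.361). Of the members that are no collagens, the laminin chain gene Lamb1 was at 0.34 (adjusted p = 0.757). The epidermal calmodulin-like gene Calm4, which stands here in place of the study's CALML5, was at -1.48 (adjusted p = 0.249). Col4a4 was at 0.43 (adjusted p = 0.144). In the deposited normalized values 14 of the 16 were called lower and 1 was called higher, against 3.52% and 1.21% of all genes, the latter being Lamb1 (1.03, adjusted p = 2.6e-04). Those values follow the scanner files only in part, as described with their counts.

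Lipid-making tissue formed the next group. Of 9 measured sebaceous gland markers 3 fell and the median change was -1.76, and of 19 adipocyte markers 4 fell with a median of -1.37, none rising in either list, where 0.953% of all genes fell. Fa2h, the fatty acid 2-hydroxylase of sebum and epidermal lipids, was at 0.45, 0.42 and 0.42 after 20 Gy and at 4.22, 5.0, 3.43 and 3.69 in sham (-3.65 ± 1.13, adjusted p = 0.0458). Cidea, a lipid droplet protein that sebocytes express strongly, was at 3.04, 2.55 and 1.86 against 5.50, 6.38, 5.64 and 5.83 (-3.35 ± 0.82, adjusted p = 0.00574). For both genes the 4 sham arrays lay together, those of either scanner, and the 20 Gy arrays lay below them. Scd1, the stearoyl-CoA desaturase, was at 0.69, 0.14 and 0.02 against 1.6, 2.12 and 3.36, without the outlier spot of M002 (-2.07 ± 0.45, adjusted p = 0.00273). With scanner 1 alone Fa2h was at -4.18, Cidea at -3.45 and Scd1 at -1.57, none past the test (adjusted p = 0.14, 0.0591 and 0.107), and with the spread from scanner 1 arrays only all 3 passed at the same values (adjusted p = 3.2e-05, 7.8e-05 and 3.9e-04).

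The adipocyte list holds enzymes of fatty acid synthesis and adipokines. Fasn, fatty acid synthase, was at -0.94, -1.41 and -1.30 after 20 Gy and at 1.35, 1.51, 0.60 and 0.10 in sham (-2.11 ± 0.37, adjusted p = 2.2e-04), and it stayed past the test against scanner 1 alone (-2.65, adjusted p = 1.4e-04). A further probe of Fasn was at -0.65 and did not pass. Elovl6, which elongates palmitate, changed by -2.36 ± 0.60 (adjusted p = 0.00805), and by -2.43 with scanner 1 alone, no longer past the test (adjusted p = 0.0744). Both genes are used by sebocytes and keratinocytes too. Adipoq, the gene of the adipocyte hormone adiponectin, was at 1.56, 0.75 and 0.36 after 20 Gy and at 1.47, 2.67, 7.35 and 5.59 in sham. The groups overlapped, and the change was -3.38 ± 0.98 (adjusted p = 0.0289) against all sham arrays and -1.18 (adjusted p = 1) against those of scanner 1. Cfd, or adipsin, was at 5.88, 5.55 and 4.09 against 6.64, 6.80, 9.33 and 8.23 (-2.58 ± 0.78, adjusted p = 0.0377) and at -1.55 with scanner 1 alone (adjusted p = 1). Neither Adipoq nor Cfd passed with the slide as a random block (adjusted p = 0.069 and 0.0899). With the scanner as a block they did not pass either (adjusted p = 0.0984 and 0.146). The adipocyte list's median level was 0.36 to 1.1 after 20 Gy, 1.04 and 1.51 in sham on scanner 1 and 4.35 and 2.70 in sham on scanner 2. Mgll, monoglyceride lipase, was the remaining lipid gene among the largest falls, at 1.80, 0.94 and 0.28 against 3.68, 4.45, 5.61 and 5.0 (-3.68 ± 0.88, adjusted p = 0.00482), and at -3.06 with scanner 1 alone (adjusted p = 0.207).

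Sterol synthesis was looked at after its values were seen. Of 20 genes of sterol synthesis and its regulation, 3 fell, where 0.953% of all genes did, 18 changes were below 0 and the median was -0.49. Msmo1, a sterol methyl oxidase, was at -0.28, -0.37 and -0.77 after 20 Gy and at 1.88, 2.47, 1.46 and 2.27 in sham, without overlap (-2.5 ± 0.41, adjusted p = 1.2e-05). Idi1, which isomerizes the isoprenoid unit, was at -0.56, -0.64 and -0.53 against 0.56, 1.45, 0.31 and 0.92 (-1.39 ± 0.31, adjusted p = 0.00158). The third was Sc5d (-1.23 ± 0.34, adjusted p = 0.0198). Sc5d did not pass with the slide as a random block (adjusted p = 0.0591) or with the scanner as a block (adjusted p = 0.0715). A further probe of Idi1 was at -0.76 and did not pass. The early enzyme Hmgcs1 was at -0.73 (adjusted p = 0.176). With scanner 1 alone Msmo1 and Idi1 passed at -2.65 and -1.58 (adjusted p = 3.7e-04 and 0.00724), and Sc5d did not (-0.51, adjusted p = 1).

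In the epidermis and hair follicle, of 28 differentiation markers 1 fell, with a median of -0.64, of 8 basal markers 2 fell (-0.28), and of 13 follicle stem cell and outer root sheath markers 3 fell (-0.37), where 0.953% of all genes did. In the deposited normalized values 12, 4 and 8 of them were called lower, where 3.52% of all genes were. Krt1, the first keratin of differentiating cells, was at 1.19, 1.31 and 0.66 after 20 Gy and at 3.06, 4.67, 7.12 and 4.63 in sham (-3.82 ± 0.99, adjusted p = 0.0101). Krt14 of the basal layer was at 2.24, 2.67 and 2.30 against 2.69, 3.21, 4.45 and 3.73, a narrow gap (-1.12 ± 0.32, adjusted p = 0.0293), while its partner Krt5 was at 4.09, 4.50 and 4.63 against 5.23, 5.26, 4.56 and 3.76 and overlapped (-0.30, adjusted p = 0.804). With scanner 1 alone neither keratin that fell stayed past the test (Krt1 -2.81, adjusted p = 0.485, and Krt14 -0.55, adjusted p = 1). With the scanner as a block Krt1 passed (-3.77, adjusted p = 0.0159) and Krt14 did not (-0.83, adjusted p = 0.109).

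Ptn, the growth factor pleiotrophin that the basal list holds, was at -1.53, -1.18 and -0.99 after 20 Gy and at 1.38, 1.69, -0.07 and 1.74 in sham (-2.42 ± 0.57, adjusted p = 0.00347). Krt79, the keratin of the upper follicle canal, was at 1.56, 1.24 and 0.62 against 3.69, 4.64, 5.41 and 5.53 (-3.67 ± 0.68, adjusted p = 1.3e-04). Cd34, which marks follicle bulge cells and also vessels and fibroblasts, was at -0.43, -0.51 and -0.68 against 2.49, 1.58, 1.51 and 2.89 (-2.66 ± 0.47, adjusted p = 1.0e-04). All 3 genes were separated from sham without overlap and held against scanner 1 alone, at -2.77, -3.02 and -2.58 (adjusted p = 0.0141, 0.0347 and 0.00567). Krt75 of the companion layer fell in the pooled comparison (-2.22 ± 0.63, adjusted p = 0.0231) but not against scanner 1 alone (-1.78, adjusted p = 0.512). It did not pass with the scanner as a block either (-1.99, adjusted p = 0.0575). None of 21 hair shaft and inner root sheath genes passed the test (median -0.21). Mup1, a carrier of pheromones known from liver and urine whose near-identical paralogs a probe may not tell apart, was at 0.63, 0.70 and 0.53 against 1.74, 4.98, 8.47 and 6.80. Its sham arrays spread over more than 6 log2 units, and its change was -4.88 ± 1.27 (adjusted p = 0.0113), or -2.74 with scanner 1 alone (adjusted p = 0.923).

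In a list of MHC class II presentation put together after the values were seen, 10 genes were tested, all 10 changes were below 0 (median -0.83) and 3 passed the test, where 0.953% of all genes fell. H2-Ab1, the beta chain of the class II molecule I-A, was at 1.03, 0.63 and 1.12 after 20 Gy and at 3.64, 3.19, 4.93 and 4.19 in sham (-3.06 ± 0.53, adjusted p = 3.2e-05). Cd74, the invariant chain, was at -0.29, 0.08 and 0.82 against 2.86, 1.81, 2.19 and 3.18 (-2.30 ± 0.59, adjusted p = 0.00948), and H2-DMb1, of the peptide loader, changed by -2.31 ± 0.56 (adjusted p = 0.00494). Each of these was below every sham array on either scanner. A further probe of H2-DMb1 was at -0.64 and did not pass. Of the 3 probes of H2-Ab1, which ranged from -3.06 to -2.64, 1 passed. H2-Aa, the alpha chain of I-A, was at 0.32, 0.35 and 0.83 against 1.09, 1.84, 5.46 and 5.19 and missed the threshold (-2.90, adjusted p = 0.214). Against scanner 1 alone H2-Ab1 held (-2.49, adjusted p = 0.0175), and Cd74 and H2-DMb1 did not (-2.13 and -1.62, adjusted p = 0.172 and 0.436).

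Of 13 dendritic and Langerhans cell markers the only ones that fell were H2-Ab1 and Cd74, and the list median was -0.11. Cd207, or langerin, the defining protein of Langerhans cells, was not well above background in any 20 Gy array (-0.01, 0.02 and 0.09) and was at 0.12, 0.73, 2.50 and 2.21 in sham, without passing the test (adjusted p = 0.512). None of 17 macrophage markers passed limma's adjusted test (median -0.74). At an unadjusted p under 0.05 with a fold of at least 2, 378 of all 30294 probes and 4 of these markers were lower. Their median level per array was 0.11 to 0.57 after 20 Gy, 0.21 and 0.33 in sham on scanner 1, and 2.39 and 3.18 in sham on scanner 2, so that 20 Gy and sham overlapped on scanner 1. Pf4, platelet factor 4, was at -2.15, -2.35 and -1.83 against -0.97, -1.69, -0.26 and 2.15 (-1.92 ± 0.57, adjusted p = 0.0464), the only one of 12 platelet genes past the test, and at -0.78 with scanner 1 alone (adjusted p = 1). With the slide as a random block Pf4 did not pass (-1.87, adjusted p = 0.0564), and with the scanner as a block it did (-2.14, adjusted p = 0.0256). The hemoglobin genes Hba-a1 and Hbb-bt, near-identical to neighboring copies, were at -2.21 (adjusted p = 0.074) and -2.29 (adjusted p = 0.414). For Hba-a1 the levels were 1.36, 1.45 and 1.34 against 1.52, 2.61, 4.94 and 5.29, and for scanner 1 alone the change was -0.69 (adjusted p = 1).

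Metallothioneins, small proteins that bind zinc and copper, were divided. Mt1 and Mt2, the forms of nearly all tissues, rose, and Mt4, the form of stratified epithelia, fell. Mt1 was at 2.51, 2.82 and 3.26 after 20 Gy and at 0.18, -1.22, -1.28 and 0.03 in sham, with more than 2 log2 units between the groups (3.43 ± 0.61, adjusted p = 4.7e-05). Mt2 was at 2.84, 3.40 and 4.30 against 1.15, -0.41, -0.42 and 0.51 (3.31 ± 0.58, adjusted p = 5.2e-05). Mt4 was at 0.18, 0.22 and 0.00 against 1.12, 2.62, 4.94 and 4.34 (-3.12 ± 0.96, adjusted p = 0.0449), and was well above background in 2 of the 3 arrays of 20 Gy. Mt3, the brain form, did not pass (-0.33, adjusted p = 0.846). Against scanner 1 alone Mt1 and Mt2 held at 3.38 and 3.14 (adjusted p = 0.00314 and 0.00525), and Mt4 was at -1.73 (adjusted p = 1). Mt4 did not pass either with the slide as a random block (-2.84, adjusted p = 0.112) or with the scanner as a block (-2.77, adjusted p = 0.102). The sham arrays of Mt4 again lay apart by scanner. Slc39a14, the zinc importer ZIP14, was chosen for mention after its values were seen and was at 1.93, 1.44 and 2.11 against 0.01, -0.25, -0.79 and -0.22 (2.14 ± 0.25, adjusted p = 7.4e-09), and at 1.95 against scanner 1 alone (adjusted p = 2.0e-05).

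The promoters of the 3 metallothionein genes that changed are shown because the genes lie in one cluster on chromosome 8, with Mt3 between Mt4 and Mt2, yet moved in both directions. They are 300 bases on the plus strand of GRCm38.p6 from RefSeq, 250 before and 50 after the start, at chr8:94178839-94179138 (Mt1), chr8:94172368-94172667 (Mt2) and chr8:94136954-94137253 (Mt4). Capitals mark the core of the metal response element, searched on both strands as TGCACNC and TGCGCNC, which together make up its usual consensus.
Mt1 promoter: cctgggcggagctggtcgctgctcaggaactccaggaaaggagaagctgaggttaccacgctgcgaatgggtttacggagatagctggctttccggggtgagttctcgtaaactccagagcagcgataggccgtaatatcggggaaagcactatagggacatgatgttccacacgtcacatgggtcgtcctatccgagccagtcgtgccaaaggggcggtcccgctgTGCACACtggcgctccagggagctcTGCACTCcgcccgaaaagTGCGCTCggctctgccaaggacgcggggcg
Mt2 promoter: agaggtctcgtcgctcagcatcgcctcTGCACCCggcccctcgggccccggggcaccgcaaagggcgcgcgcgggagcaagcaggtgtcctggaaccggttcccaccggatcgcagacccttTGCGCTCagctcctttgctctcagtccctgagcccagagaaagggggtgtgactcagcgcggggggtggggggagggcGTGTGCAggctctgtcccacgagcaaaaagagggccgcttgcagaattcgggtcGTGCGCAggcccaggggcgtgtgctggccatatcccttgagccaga
Mt4 promoter: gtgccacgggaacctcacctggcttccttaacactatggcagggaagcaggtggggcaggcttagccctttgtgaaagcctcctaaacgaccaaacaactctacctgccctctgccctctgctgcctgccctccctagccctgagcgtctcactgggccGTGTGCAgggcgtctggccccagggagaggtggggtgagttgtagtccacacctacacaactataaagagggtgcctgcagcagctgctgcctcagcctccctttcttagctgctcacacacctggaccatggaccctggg
The core was found 3 times in Mt1, 4 times in Mt2 and once in Mt4, as once in Mt3. Of 32851 promoters of this length 25.7% held at least 1, 1.97% at least 3 and 0.517% at least 4. A match describes letters and is no evidence of binding, and the data do not bear on binding here.

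**Figure D2:**
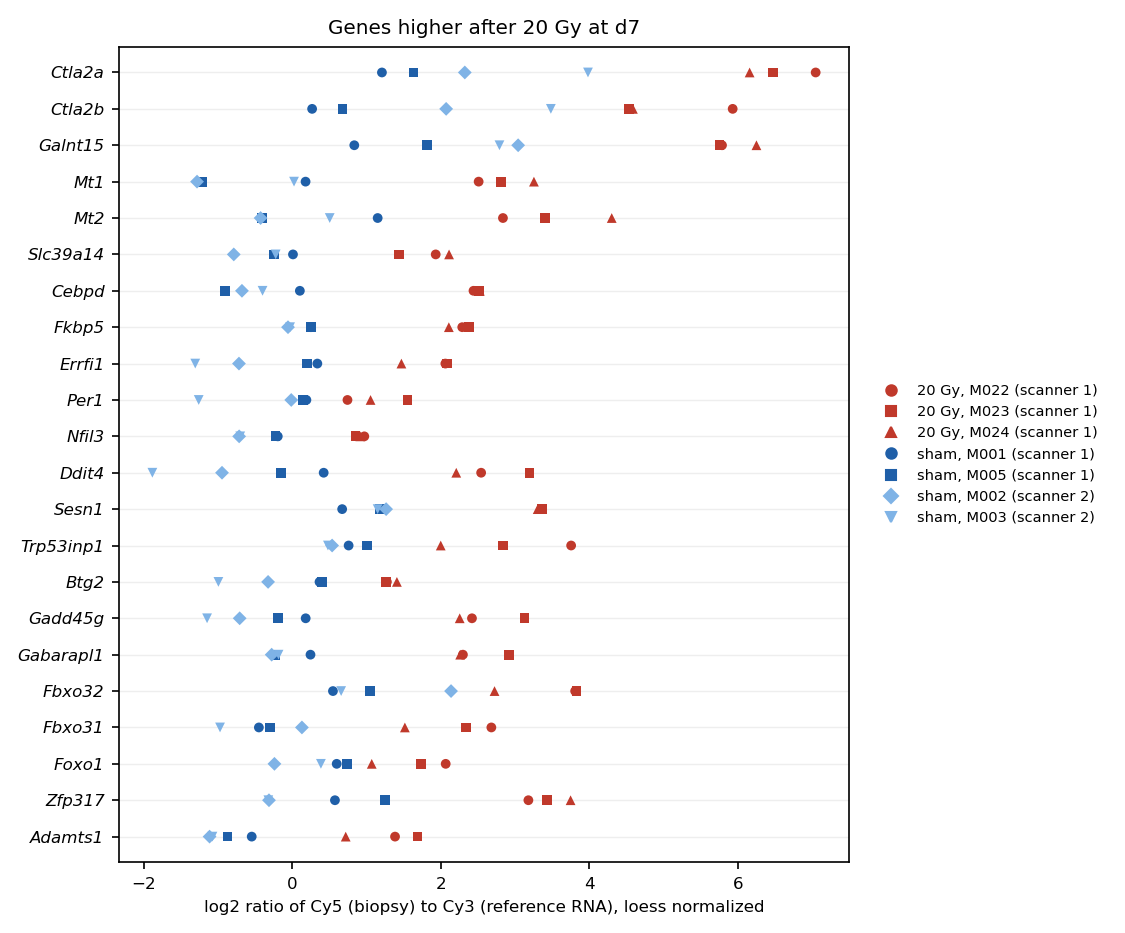
Level of genes that rose after 20 Gy in each of the 7 arrays at d7, as the log2 ratio of Cy5 to Cy3 after loess, with the same symbols for the arrays (red 20 Gy, dark blue sham on scanner 1, light blue sham on scanner 2). In every gene shown the 3 red points lie above all 4 blue ones, as for Mt1 with 2.51 to 3.26 against -1.28 to 0.18.

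Of 13 genes that glucocorticoids are known to induce, 5 rose and none fell, where 1.26% of all genes rose, and the median was 1.15. Mt2 was one of them. Cebpd, a transcription factor of the acute phase response, was at 2.44, 2.51 and 2.53 after 20 Gy and at 0.10, -0.90, -0.68 and -0.40 in sham (2.96 ± 0.40, adjusted p = 3.4e-07). Fkbp5, a co-chaperone of the glucocorticoid receptor and its standard target, was at 2.29, 2.38 and 2.11 against 0.25, 0.25, -0.06 and -0.03 (2.15 ± 0.49, adjusted p = 0.00227). Errfi1, a feedback inhibitor of the epidermal growth factor receptor, was at 2.06, 2.09 and 1.47 against 0.34, 0.20, -0.72 and -1.30 (2.24 ± 0.40, adjusted p = 6.7e-05). In these 3 genes the 20 Gy arrays lay within 1 log2 unit of each other and above every sham array. The fifth was the clock gene Per1, at 0.75, 1.55 and 1.06 against 0.19, 0.14, -0.01 and -1.26 (1.35 ± 0.38, adjusted p = 0.0226). Per1 did not pass with the slide as a random block (adjusted p = 0.0711), with the scanner as a block (1.13, adjusted p = 0.0721) or in the deposited values (0.49, adjusted p = 0.266), while the other 4 genes passed in each of these. Other standard targets missed the test by the probe that represents the gene, Tsc22d3 at 1.12 (adjusted p = 0.437) and Klf9 at 1.32 (adjusted p = 0.087). A further probe of Tsc22d3 was at 1.94 and passed. Against scanner 1 alone Cebpd and Mt2 held, Cebpd at 2.89 (adjusted p = 8.8e-05), and Fkbp5 at 2.01, Errfi1 at 1.61 and Per1 at 0.95 did not (adjusted p = 0.0687, 0.0614 and 0.724). In the list of 18 clock genes Per1 and Nfil3 rose, against 1.26% of all genes, and none fell. Nfil3, a repressor of clock output, was at 0.97, 0.85 and 0.92 against -0.19, -0.22, -0.71 and -0.70 (1.37 ± 0.32, adjusted p = 0.00297), and did not pass with scanner 1 alone (1.12, adjusted p = 0.176).

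Of 28 targets of p53, 4 rose (against 1.26% of all genes) and none fell, 25 changes were above 0 and the median was 0.33. Ddit4, or REDD1, an inhibitor of the growth kinase mTORC1 that glucocorticoids and hypoxia also induce, was at 2.54, 3.20 and 2.21 after 20 Gy and at 0.42, -0.15, -0.94 and -1.88 in sham (3.29 ± 0.51, adjusted p = 4.1e-06). Sesn1, a sestrin that restrains the same kinase, was at 3.35, 3.37 and 3.31 against 0.67, 1.19, 1.27 and 1.15 (2.27 ± 0.28, adjusted p = 1.8e-08). Its 20 Gy arrays lay within 0.1 log2 units of each other and more than 2 above the highest sham array. Trp53inp1, a nuclear partner of p53 in stress, was at 3.76, 2.84 and 2.00 against 0.76, 1.01, 0.54 and 0.48 (2.17 ± 0.34, adjusted p = 6.3e-06), and Btg2, an antiproliferative gene, was at 1.28, 1.27 and 1.41 against 0.37, 0.40, -0.32 and -0.99 (1.45 ± 0.26, adjusted p = 4.4e-05). Of the 3 probes of Btg2 only this one passed, and they ranged from -0.04 to 1.45. The best known targets did not pass in the scanner values. Cdkn1a, the cell cycle inhibitor p21, changed by 0.80 (adjusted p = 0.525), Mdm2, which degrades p53, by 0.34 (adjusted p = 0.674) and Bax, which opens mitochondria in apoptosis, by 0.48 (adjusted p = 0.428). In the deposited values Cdkn1a was called higher (1.05, adjusted p = 1.8e-04), and Mdm2 (0.18) and Bax (0.36) were not. Against scanner 1 alone Ddit4, Sesn1 and Trp53inp1 held at 2.51, 2.41 and 1.98 (adjusted p = 0.00868, 2.0e-06 and 0.00193), and Btg2 did not (0.93, adjusted p = 0.0892). None of 32 cell cycle genes passed, with a median of 0.29, Pcna at 0.15 (adjusted p = 0.903) and Birc5 at 0.00 (adjusted p = 0.999).

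In a list of 17 genes of fasting and wasting 2 rose and 1 fell, against 1.26% and 0.953% of all genes. Fbxo32, or atrogin-1, a ubiquitin ligase component known from wasting muscle, was at 3.81, 3.83 and 2.73 after 20 Gy and at 0.55, 1.05, 2.14 and 0.66 in sham (2.36 ± 0.57, adjusted p = 0.00522). Foxo1, the transcription factor upstream of it in muscle, was at 2.07, 1.73 and 1.07 against 0.60, 0.74, -0.24 and 0.39 (1.25 ± 0.34, adjusted p = 0.017). With the scanner as a block Foxo1 did not pass (0.90, adjusted p = 0.0713). Igf1, the growth factor that opposes wasting, was at -0.95, -0.81 and -0.47 against 0.00, -0.03, 2.14 and 2.84 (-1.98 ± 0.53, adjusted p = 0.0139). A further probe of Igf1 was at -0.70 and did not pass. Trim63, the other ligase of muscle atrophy, was above every sham array without passing the test (2.87, adjusted p = 0.13). In the model of scanner 1 arrays Trim63 passed (4.14, adjusted p = 4.6e-06), and with the scanner as a block it did not (3.27, adjusted p = 0.0646). Gabarapl1, which builds autophagosomes, was at 2.30, 2.91 and 2.26 against 0.25, -0.23, -0.28 and -0.18 (2.60 ± 0.35, adjusted p = 1.2e-07). Its further probe was at 0.88 and did not pass. With scanner 1 alone Fbxo32 and Gabarapl1 held at 2.66 and 2.48 (adjusted p = 0.0244 and 6.5e-05), and Foxo1 (0.95, adjusted p = 0.535) and Igf1 (-0.73, adjusted p = 1) did not.

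Several of the largest rises belong to no list. Ctla2a and Ctla2b are neighboring paralogs on chromosome 13 that encode inhibitors of cathepsin-like proteases, and their sequence likeness means that a probe may read both. Ctla2a rose most of all genes. Ctla2a was at 7.05, 6.47 and 6.16 after 20 Gy and at 1.21, 1.63, 2.32 and 3.98 in sham, a 19.3-fold rise (4.27 ± 0.64, adjusted p = 1.7e-06), and Ctla2b changed by 3.39 ± 0.68 (adjusted p = 4.2e-04), with a further probe at 0.45 that did not pass. Galnt15, a transferase of the family that starts O-linked glycosylation, was at 5.79, 5.75 and 6.25 against 0.84, 1.81, 3.04 and 2.79 (3.81 ± 0.89, adjusted p = 0.00348). In all 3 genes the sham arrays of scanner 2 lay nearer to 20 Gy than those of scanner 1, and the rises were larger with scanner 1 alone (5.14, 4.54 and 4.61, adjusted p = 4.4e-06, 8.3e-05 and 0.00692). Zfp317, a zinc finger protein, was at 3.18, 3.43 and 3.75 against 0.58, 1.25, -0.31 and -0.32 (3.15 ± 0.25, adjusted p = 1.9e-14), but a further probe of the gene was at 0.21 and did not pass. Gadd45g, a growth arrest and stress sensor, was at 2.42, 3.13 and 2.26 against 0.18, -0.19, -0.71 and -1.15 (3.07 ± 0.38, adjusted p = 1.8e-08), and Fbxo31, which directs cyclin D1 to degradation, at 2.68, 2.34 and 1.52 against -0.45, -0.29, 0.13 and -0.97 (2.57 ± 0.30, adjusted p = 5.0e-09). Zfp317, Gadd45g and Fbxo31 held with scanner 1 alone at 2.54, 2.61 and 2.55 (adjusted p = 9.5e-10, 7.6e-05 and 3.1e-06).

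In 21 lists with 340 members tested, a gene in several lists counted in each, no gene passed the adjusted test. At an unadjusted p under 0.05 with a fold of at least 2, 8 members were higher and 12 lower. Over all 30294 probes the same criteria gave 475 and 378. None of 20 interferon genes passed (median -0.17, with Irf1 at 0.02), none of 20 inflammatory cytokines and chemokines (median 0.01, with Ccl5 at 0.41, adjusted p = 0.86), none of 22 complement and coagulation genes, none of 17 genes of oxidative stress and none of 22 ribosomal proteins. The same held for endothelium, smooth muscle, melanocytes, nerve, neutrophils, T and B cells, mast cells and skeletal muscle. Muscle is a source of Fbxo32, Trim63 and Foxo1, and of its 22 markers none passed, with a median of -0.23. Its part in the rise of Fbxo32 and Foxo1 was not tested. Of 22 respiratory chain genes 2 fell, against 0.953% of all genes, Cox5b (-1.29 ± 0.31, adjusted p = 0.00505) and Uqcrc2. Uqcrc2, a core subunit of complex III, was at -0.31, -1.65 and -1.56 after 20 Gy and at -0.69, -0.18, 0.47 and 0.52 in sham (-1.21 ± 0.28, adjusted p = 0.00452). The array of M022 lay within the sham range, and neither gene passed against scanner 1 alone (Cox5b -0.90, Uqcrc2 -0.74, adjusted p = 0.433 and 0.538) or in the deposited values (-0.20 and -0.09, adjusted p = 0.377 and 0.737).

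**Figure D3:**
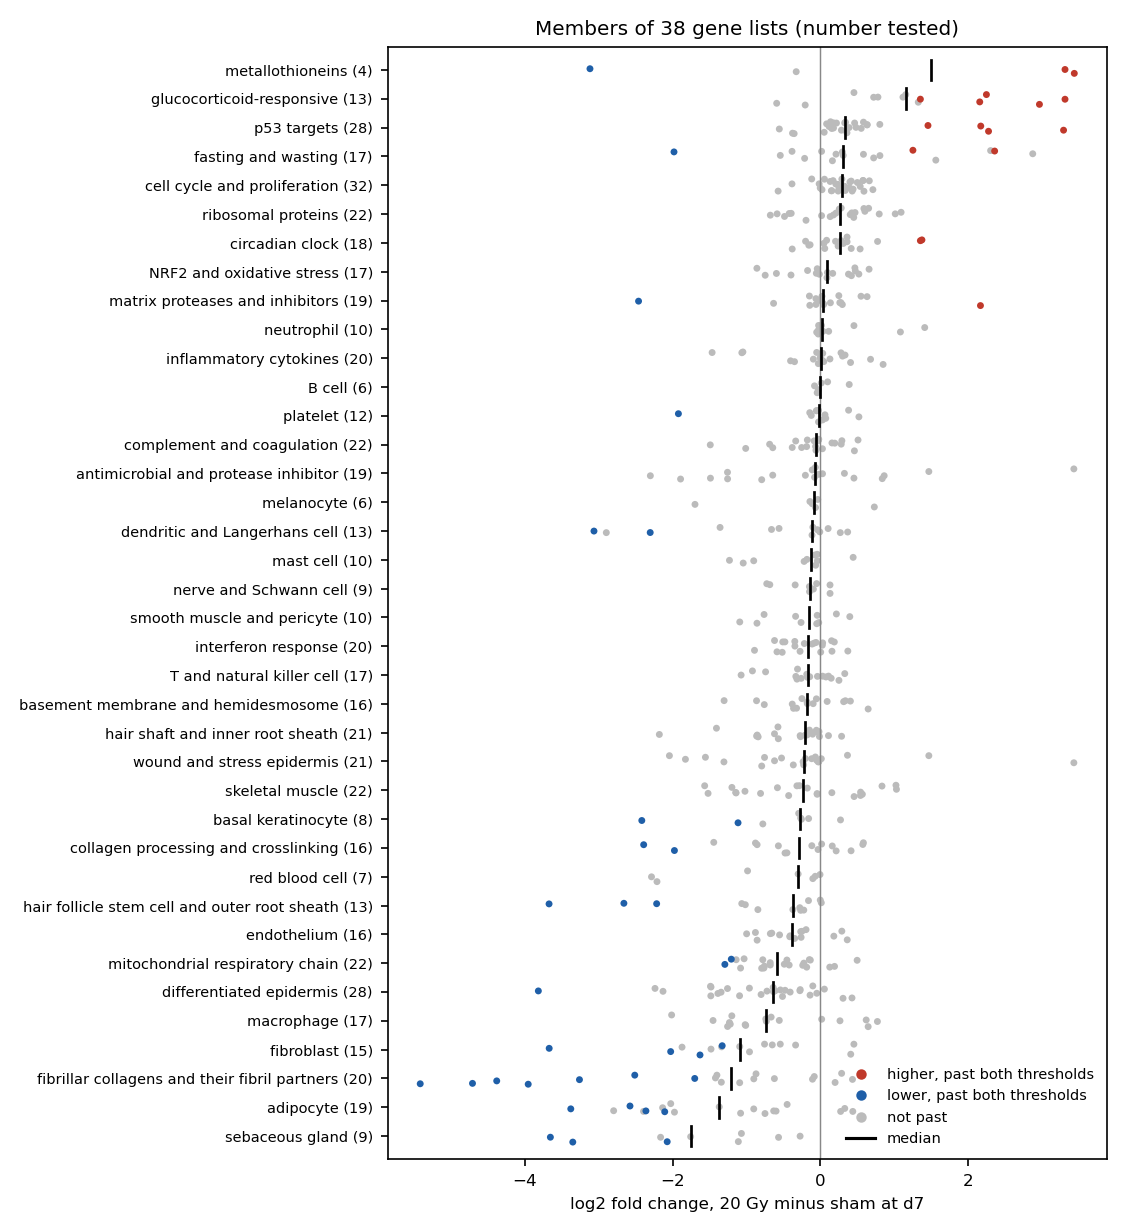
Change of each measured member of the gene lists, 20 Gy minus sham at d7 on the log2 scale; each point is a gene, colored where it passed both thresholds, the black bar is the median of the list, and the number of genes tested stands beside its name. Among the lists drawn, which leave out the GP6 list and those chosen after their values were seen, sebaceous gland, adipocyte and fibril genes have the lowest medians (-1.76, -1.37 and -1.22), and the metallothioneins and the glucocorticoid-responsive genes the highest (1.49 and 1.15).

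The change at d7 was then set against that at h2 and d4, which come from other arrays and mostly from the same mice. Of the 4 mice per group at each earlier time, 3 also had an array at d7. All 20 Gy arrays of these times were on scanner 1, as were 3 of the 4 sham arrays at h2 and at d4. The 4 arrays of 20 Gy at h2 shared one slide and the 4 at d4 another, with no sham array on either, so that slide and dose cannot be told apart at these times. Far more probes had passed at the earlier times. At h2 1754 probes (5.79%) rose and 1008 (3.33%) fell, and for d4 these numbers were 1844 (6.09%) and 1548 (5.11%). In the contrast of changes, 775 probes (2.56%) were higher and 1136 (3.75%) lower at d7 than at d4, and 584 (1.93%) and 1108 (3.66%) against h2. With the slide as a random block, added after seeing the data, these numbers were 513 and 814 for d4, and 413 and 851 for h2, and the falls at h2 and d4 numbered 502 and 763. Over all 30294 probes the changes at h2 and d4 correlated at 0.90, and those of d7 with h2 and d4 at 0.29 and 0.31. These are descriptions over probes that share arrays and normalization.

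The 20 Gy arrays of h2 and d4 stood apart in probes of the RNAs Rn28s1 and Snord33 and of the protein-coding gene Lars2. Rn28s1 was at 7.55 and 5.98, Lars2 at 8.97 and 6.87 and Snord33 at 6.40 and 6.46 above sham (adjusted p = 3.2e-07 or less for each). None passed at d7 in the main model (adjusted p = 0.724 for Rn28s1, 0.45 for Lars2 and 0.416 for Snord33). With the scanner as a block, Lars2 (3.50, adjusted p = 0.00282) and Snord33 (2.56, adjusted p = 2.7e-04) passed at d7. Rn28s1 did not (2.19, adjusted p = 0.0906). The part of these probes in the differences over time was not tested. In 20 Gy skin Col1a1 went from 5.16 (h2) through 4.26 (d4) to -1.48 (d7), while sham skin had 4.20, 4.00 and 3.23. Col3a1 went through 4.83, 3.43 and -1.65 after 20 Gy against 4.89, 4.68 and 3.76 in sham, so that only the level at d7 was below 0. Col1a2 was 2.12 above sham at h2 (adjusted p = 0.0259, or 0.0524 with the slide as a block). Fa2h was at 5.84, 5.31 and 0.43 after 20 Gy against 4.35, 4.76 and 4.08 in sham. Mfap4 was at 6.66, 6.63 and 1.41 against 5.74, 5.95 and 5.08. Ctla2a was at 0.98, 2.09 and 6.56 after 20 Gy against 2.18, 2.32 and 2.29 in sham, Sesn1 at 0.49, 0.28 and 3.34 against 1.34, 1.62 and 1.07, and Cebpd at -0.62, -0.41 and 2.49 against -0.16, -0.35 and -0.47. Sesn1 had thus been below sham at d4 (-1.33, adjusted p = 6.7e-05) before it rose. Cdkn1a was 2.55 above sham at d4 (adjusted p = 5.4e-06) and 0.80 at d7, though that difference between times was not past the test (adjusted p = 0.0636). Keratins Krt5 and Krt17 had been 2.90 and 2.56 above sham at h2 and were at -0.30 and -0.76 at d7.

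Some changes were present early. Mt1 was 1.43 above sham at h2 (adjusted p = 0.0536) and 1.49 at d4 (adjusted p = 0.0348), and neither contrast with d7 passed (adjusted p = 0.132 and 0.125). Idi1 was already at -1.31 at h2 (adjusted p = 3.5e-04) and -1.55 at d4 (adjusted p = 2.5e-05), against -1.39 at d7. Fasn was at -1.25 and -1.40 (adjusted p = 0.0142 and 0.00493). Mt4 was at -3.34 and -2.73 (adjusted p = 0.00408 and 0.0155), against -3.12 at d7. With the slide as a block Idi1 passed at both times (adjusted p = 0.0108 and 0.00165), Fasn at d4 alone (adjusted p = 0.0776 and 0.0387), Mt4 at h2 alone (adjusted p = 0.0288 and 0.0669) and Mt1 at neither (adjusted p = 0.103 and 0.0521). The largest difference between d7 and d4 was that of a structural RNA. Rmrp, the RNA of the ribonuclease MRP, exceeded sham by 6.97 at h2 and by 6.93 at d4, and by 0.15 (adjusted p = 0.991) on d7, where sham itself moved from -2.15 and -2.67 to 0.56. With the scanner as a block Rmrp passed at d7 (1.55, adjusted p = 0.00959).

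**Figure D4:**
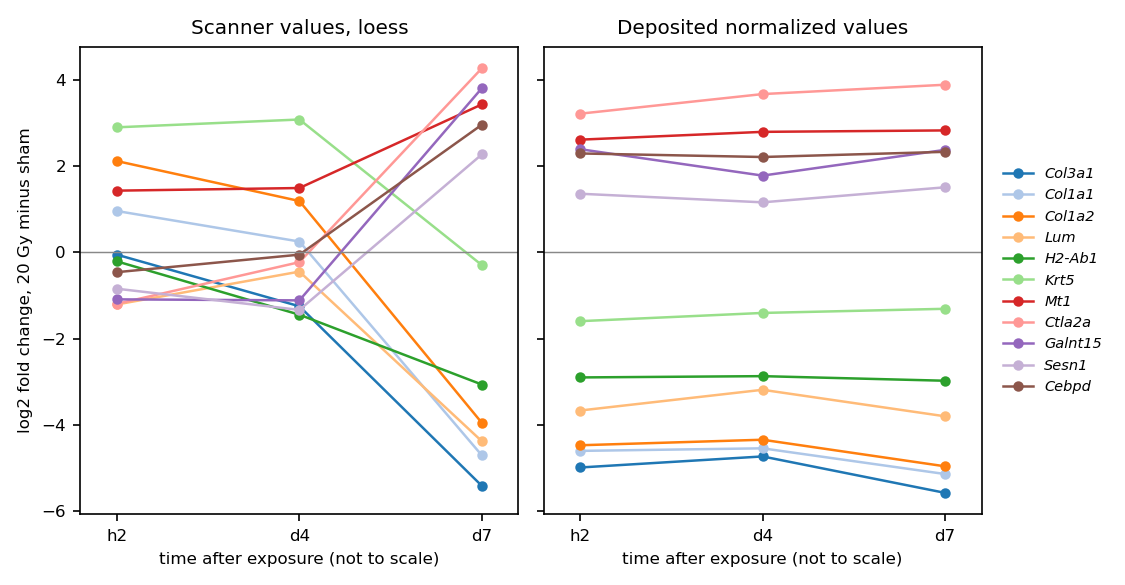
Change of 11 genes, 20 Gy minus sham on the log2 scale, at h2, d4 and d7, from the scanner values after loess on the left and from the deposited normalized values on the right; each line is a gene, with the time points evenly spaced. On the left Col3a1 goes from -0.05 at h2 to -5.42 at d7, on the right from -4.99 to -5.58.

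In the deposited normalized values this course over time was absent, with no probe past both thresholds in either limma contrast of d7 with h2 or d4, and none at an unadjusted p under 0.05 with a fold of at least 2. There the changes of the 3 time points correlated at 0.95 to 0.96, and that of h2 correlated at 0.33 with its own scanner values and at 0.73 with the scanner values of d7. At d7 the correlation of both value sets was 0.79. The differences between d7 and the earlier times therefore hold for the scanner values alone. In the deposited values Mt1, Idi1, Fasn and Mt4 were at 2.62, -2.01, -2.31 and -3.25 at h2 (adjusted p = 8.0e-16, 5.1e-14, 8.9e-10 and 6.2e-15). Since the deposited changes at h2 largely repeat those at d7, these values cannot tell an early change from one of d7.

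Against the lower doses at d7, a mean of 1, 3 and 6 Gy with 2, 3 and 2 arrays, 679 probes (2.25%) were higher and 468 (1.55%) lower after 20 Gy. All these arrays were on scanner 2, so that dose and scanner cannot be told apart here. Of the genes that rose against sham 191 of 199 (96%) were also higher than after the lower doses, and of those that fell 134 of 150 (89.3%) were also lower, the same 20 Gy arrays entering both. Against sham at d7, limma found no SDTG after 1 Gy or 3 Gy and only 2 falls after 6 Gy, and at an unadjusted p under 0.05 with a fold of 2 there were 84 higher and 175 lower, 523 and 59, and 54 and 35 for the 3 doses. Col3a1 was at 3.32, 3.67 and 2.65 after 1, 3 and 6 Gy, within or next to the sham range, against -1.65 after 20 Gy. Ctla2a was at 2.78, 3.34 and 2.59 against 6.56, and Zfp317 at -0.02, -0.31 and -0.13 against 3.45.

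The numbers of SDTGs depended on which sham arrays and which values were used. Against the 2 sham arrays of scanner 1 alone, with those of scanner 2 as a group of their own in the same model, 172 probes were higher and 58 lower, of which 155 and 52 were among the 366 and 189. With a model of the scanner 1 arrays only, the numbers were 379 and 182, of which 225 and 109 were shared. Of the 62 named genes, 27 passed against the sham arrays of scanner 1 alone and 48 in the model of scanner 1 arrays. Of the 30294 probes tested, 99 were higher and 138 lower on scanner 2 than on scanner 1 in sham. Of these, 46 were among the 366 that rose after 20 Gy and 18 among the 189 that fell. They thus made up a larger share of the rises and falls than of all probes.

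The deposited normalized values did not follow the scanner files array by array. Only 35 of the 82 deposited columns correlated best with the scanner values of their own array, and of the 7 arrays at d7 6 correlated best with another array. For the 3 arrays of 20 Gy the correlation was 0.71 to 0.80 with the own array and 0.87 to 0.88 with the best, an array of 1 Gy at h2. The steps that made these values are not given in the sources used here, and whether each column holds the array it is named for was not settled. In them 313 probes (1.03%) rose and 713 (2.35%) fell, of which 133 (36.3% of the 366) and 120 (63.5% of the 189) passed in the scanner values too. The share of rises among the SDTGs was thus 30.5% in the deposited values and 65.9% in the scanner values, 45.6% with the ratio of the scanner software, 50% with arrays centered on the median and 40.5% without background correction. No probe was called in opposite directions. The genes that rose in the scanner values had a median change of 1.36 there and of 0.91 in the deposited values, 111 of 199 being under 1. Those that fell had -1.64 and -1.42, with 54 of 150 above -1. In the scanner values, the deposited values and the software ratio alike 86 genes rose and 91 fell, and they include the 10 genes of the largest rise and the 10 of the largest fall. Lists without an SDTG in the scanner values had some in the deposited values, with 5 of 17 macrophage markers and 5 of 22 skeletal muscle markers called lower, against 3.52% of all genes. The deposited column of M022 lay close to the mean of the columns of M023 and M024, with a correlation of 0.9996 and an SD of the difference of 0.0346, where M023 and M024 differed from each other with an SD of 0.2. In the scanner values the array of M022 correlated at 0.89 with that mean, with an SD of 0.31. Without the deposited column of M022, 294 probes rose and 669 fell.

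**Figure D5:**
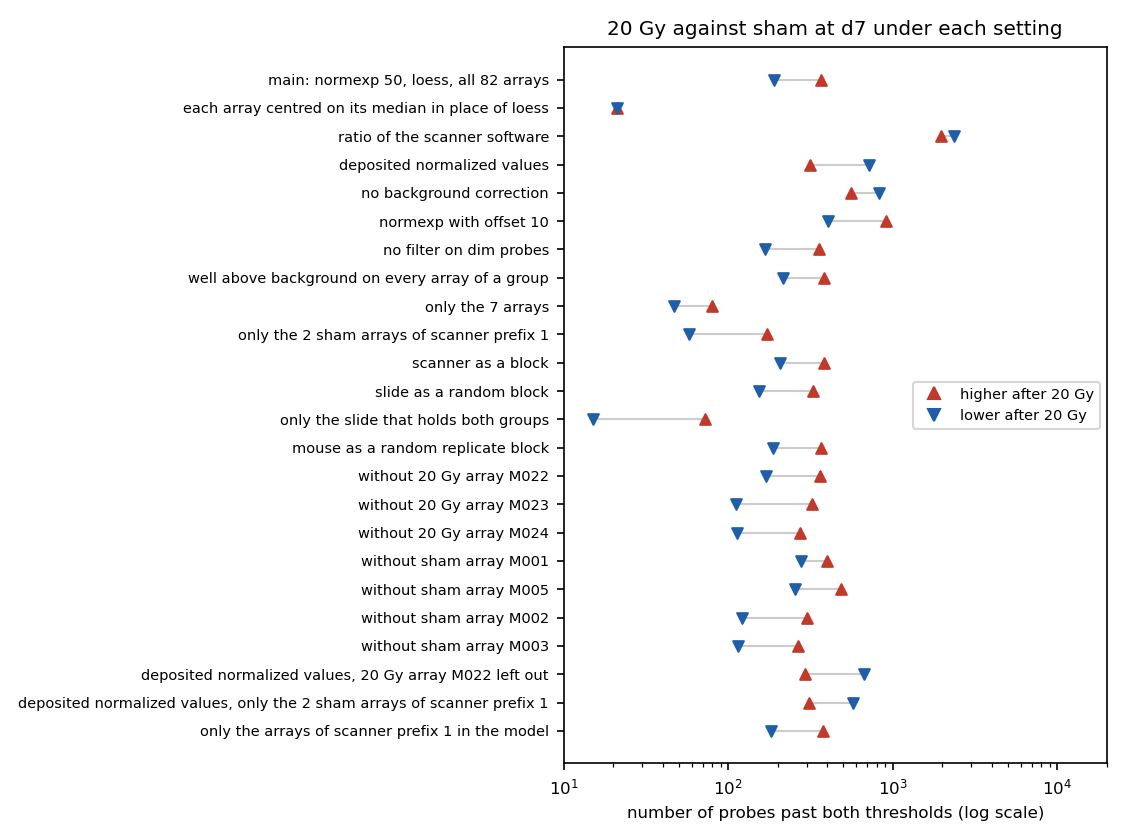
Number of probes that rose (red, pointing up) and fell (blue, pointing down) past both thresholds in 20 Gy against sham at d7 under each setting, on a log axis. The main setting gives 366 and 189, centering on the median 21 and 21, and the ratio of the scanner software 1959 and 2341.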

How the data were processed

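RNA of dorsal skin biopsies (Cy5) was hybridized against a mouse reference RNA (Cy3) on 2-color Agilent arrays, without dye swaps. Per array, the authors deposited a scanner file made with Agilent Feature Extraction (version 11.0.1.1 per the submitters' processing notes, and 10.10.1.1 in the headers of the sham arrays M002 and M003), which holds median spot and background intensities and a log10 ratio of Cy5 over Cy3. A table of log2 values that the authors had normalized was deposited too, made with custom R scripts whose steps are not given in the sources used here. Its scale was found to be log2 by comparison with the scanner values, while its centering stays unknown, as does whether each of its columns holds the array it is named for.

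Each array had 45018 spots, of which 1639 were controls. Background was corrected with normexp (offset 50) on the deposited median intensities and ratios were normalized by loess within arrays, with limma 3.58.1 in R 4.3.3. Outlier spots (0.704% of values) were left out and spots of a probe averaged, giving 41174 probes. Probes were kept (30294) if, within some group, 50% of the arrays or more had them well above background, and 67% of all probes had a gene symbol in the files. One model with a mean for each dose and time was fitted to all 82 arrays, so that the spread comes from all groups, and contrasts were tested with limma's moderated test and Benjamini-Hochberg adjustment. Arrays of one mouse at several times were treated as independent in this model. A gene was represented by its probe of highest mean intensity. A list level is the median over the list's members in an array. The steps were tested on simulated data.

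Genes were named by rule: the 12 largest rises and falls without overlap between groups, up to 4 called members of each list (otherwise up to 3 by intensity), the GP6 genes, the 4 largest differences in time in each direction, and the 8 largest changes shared by the 3 value sets. The members, gene lists and tests were chosen with earlier results of these data known, and the lists of sterol synthesis and class II presentation, and Slc39a14, after their values were seen. Cdkn1a, Mdm2, Bax, Krt5, Klf9 and the other genes that did not pass are named by value only. Some genes are not reported here and were left out of the sterol list and of counts over named genes. The alternatives were median centering, the software's log10 ratio, the deposited values, other background corrections and filters, other sets of arrays, blocks for scanner, slide (also for the times) and mouse, and leaving out each array. The number of arrays limits the precision.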

Additional observations from a re-analysis of the deposited data

Results flagged for a closer look

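In 3 of 97 genes examined (3.09%) 1 sham array at d7 lay far from the other 3, where chance alone marks about 1 gene in 20. The array of M003 was at -1.26 for Per1, against -0.01 for the nearest array, and at 2.08 for Col5a2, against 0.68. The array of M002 was at 1.01 for Klf9, against 0.30.

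The change at d7 differed from that at d4 in 775 probes that were higher and 1136 that were lower, and from that at h2 in 584 and 1108, by the limma contrast of both changes. The difference from d4 was 4.50 for Ctla2a, 4.92 for Galnt15, 3.67 for Ctla2b, 4.02 for Serpina3n, 3.61 for Sesn1, and 5.45 and 5.41 for the muscle genes Trim63 and Abra. It was -4.17 for Col3a1, -4.96 for Col1a1 and -5.15 for Col1a2. It was -6.78 for Rmrp, -5.00 for Snord33, -4.82 for Lars2 and -4.78 for Rn28s1. The difference from h2 was 5.46 for Ctla2a, 4.90 for Galnt15, 4.63 for Ctla2b, 4.12 for Serpina3n and 3.12 for Sesn1. It was -5.36 for Col3a1, -5.67 for Col1a1, -6.07 for Col1a2, -6.82 for Rmrp, -4.94 for Snord33, -6.92 for Lars2 and -6.35 for Rn28s1. The deposited values gave no such probe.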

How the results depend on the processing

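Of the 62 named genes that passed, 61 kept their direction under all 23 alternatives, the exception being Uqcrc2 (0.12 on the one slide that holds both groups), and Col3a1, Col1a1 and Zfp317 also kept their call in each. With median centering 55 of the 62 lost their call, Mt1, Mt2, Gadd45g, Sesn1 and Fasn among them (adjusted p = 0.807, 0.985, 0.236, 0.508 and 0.522). The changes of these 5 genes were then 2.11, 1.84, 2.18, 1.71 and -2.27. Ctla2a, Zfp317, Col3a1, Col1a1, Col1a2, Lum and Msmo1 kept their call. With the 7 arrays alone 37 lost it and on the one slide 47. The difference of Galnt15 between d7 and h2 was -0.015 in the deposited values. The main numbers were 366 probes higher and 189 lower, with 14 list members higher and 34 lower. They became 21 and 21 (0 and 4) with median centering, 1959 and 2341 (38 and 118) with the software ratio, 313 and 713 (22 and 118) in the deposited values, 561 and 824 (18 and 87) without background correction, and 915 and 402 (19 and 43) with an offset of 10. With the 7 arrays alone they were 80 and 47 (8 and 12), with the sham arrays of scanner 1 alone 172 and 58 (8 and 9), on the one slide, where the lone 20 Gy array is assumed to vary like the other groups, 72 and 15 (4 and 3), and with scanner 1 arrays alone in the model 379 and 182 (27 and 41). The last alternative and the next pair were chosen after seeing the data. The deposited values gave 294 and 669 (21 and 107) without M022 and 309 and 575 (20 and 92) with the sham arrays of scanner 1. Leaving out each array gave 267 to 485 higher and 111 to 277 lower probes, and 12 to 16 higher and 18 to 36 lower list members. The lower probes were 111 without M023, 113 without M024, 122 without M002 and 114 without M003. The lower list members were 22 without M022, 19 without M023, 19 without M024, 22 without M002 and 18 without M003. With the mouse as a random replicate block (correlation 0.116) the numbers were 365 and 188 (14 and 34), and with the slide (0.264) 326 and 154 (13 and 30). For d7 against d4 and h2, the deposited values gave 0 and 0 for each, and the software ratio 4279 and 3294, and 5266 and 3542. With the slide as a random block, added after seeing the data, they were 513 and 814 for d4 and 413 and 851 for h2, Serpina3n (3.80, adjusted p = 0.0638) and Abra (5.50, adjusted p = 0.0832) no longer passing against d4, and the falls at h2 and d4 went from 1008 and 1548 to 502 and 763. Against the lower doses they were 374 and 1149 in the deposited values, 5848 and 4158 with the software ratio and 134 and 566 with median centering. The cause of these shifts was not tested. Levels near background on scanner 1 limit what can be said of dim probes.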
